A study of Mus musculus with 12 samples.

Results

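Mitochondrial ribosomal protein genes were examined in mouse colonoids, organoids grown from colonic epithelial cells, that had been exposed to hemin or vehicle. Members were the protein-coding rows of the expression table whose symbol starts with Mrpl (large subunit) or Mrps (small subunit) followed by a number. The rule found 78 of 54532 genes, 49 Mrpl and 29 Mrps, and used no measured value. Colonoids came from mice 8 to 12 weeks old. Control colonoids carried Hmox1 fl/fl, a floxed allele of the gene for heme oxygenase-1 (HO-1), the enzyme that breaks down heme. Colonoids labelled KO (Hmox1 KO /Vil1 Cre) carried the floxed allele with a Cre driven by the Vil1 (villin) promoter, which is active in intestinal epithelium. Each genotype was exposed to vehicle or to 200 µM hemin (oxidized heme) for 24 hours, with 3 libraries in each of the 4 groups and 12 libraries in all. All groups were grown in the same L-WRN conditioned medium with 10% FBS. The labels do not say whether the libraries of a group came from separate mice or cultures, so the p-values measure the spread between these libraries, which may be technical. The label of hemin replicate 3 labelled KO writes the genotype differently from the other libraries labelled KO, as Hmox1 fl/fl /Vil1 Cre.

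The mitochondrial ribosome (mitoribosome) makes the few proteins that the mitochondrial genome encodes, all of them parts of the respiratory chain and of ATP synthase. Its rRNAs come from the mitochondrial genome, but every one of its proteins is encoded in the nucleus, made in the cytosol and imported. Some of these proteins descend from bacterial ribosomal proteins and others were added in mitochondria. Colonic epithelial cells rely on mitochondria as they mature, since absorptive colonocytes oxidize butyrate.

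Depth ran from 11648801 to 25101868 fragments on genes per library. The targeted gene, Hmox1, was at 6.85 to 7.90 FPKM (fragments scaled to gene length and library size, as the authors deposited them) in control vehicle and at 2.11 to 3.14 FPKM in vehicle labelled KO. With hemin it was at 382 to 503 FPKM in controls and at 1271 to 1393 FPKM in the libraries labelled KO. A level per gene does not show whether the transcript was intact, so these values cannot settle the genotype. The paper assessed Hmox1 separately, by RT-qPCR in sorted colonic epithelial cells of both genotypes. The genotype is therefore given as a label throughout. The epithelial marker list summed to 6116 to 6692 FPKM in control vehicle, 6224 to 7730 FPKM in control hemin, 4498 to 4548 FPKM in vehicle labelled KO and 5946 to 6899 FPKM in hemin labelled KO, a spread whose part in the results was not tested, while the mesenchymal list summed to at most 0.0791 FPKM, with 2 of its 6 genes (Col1a2 and Dcn) at 0 in all libraries, the endothelial list to at most 0.192 FPKM and the immune list to at most 0.779 FPKM. Control hemin replicate 3 stood apart from the other 2 control hemin libraries. Of the 39 tested members up to the median gene length of 2255 bases, 25 (64.1%) were lower in it than in both others, against 46.7% of all genes of that length; above that length the shares were 44.7% of members and 39.6% of all genes. The main counts that it moved are also given without it. In control vehicle replicate 1, control hemin replicate 1 and hemin replicate 2 labelled KO, the noncoding row Gm23935 took 16.8%, 29.0% and 21.0% of all FPKM, against at most 2.81% in the other libraries.

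Nearly all mitoribosomal proteins were expressed. A gene was tested where it reached 1 FPKM in at least 3 libraries, which 77 of the 78 members did. The exception was Mrpl53, a large-subunit protein, with 0 fragments in every library. Its span (chr6:83109040-83109939, mm10) lies wholly inside another gene row on the same strand, Gm42688, which was at 0.0982 to 0.383 FPKM, and it overlaps the antisense row Ccdc142os, so its 0 cannot be read as absence of expression. FPKM are per length, so levels can be compared between genes. The mean level over the 12 libraries had a median of 19.2 FPKM over the 48 large-subunit members tested (3.31 to 83.7) and 11.6 FPKM over the 29 small-subunit members (2.88 to 72.3). The highest members were Mrpl34, a small bacterial-type large-subunit protein (mean 83.7 FPKM), Mrps21, a bacterial-type small-subunit protein (72.3 FPKM), and Mrpl43, a protein specific to mitochondria (63.2 FPKM). The lowest tested members were Mrps30 (2.88 FPKM), Mrpl48 (3.31 FPKM) and Mrpl32 (3.92 FPKM), the last a large-subunit protein that is trimmed by a mitochondrial protease before it joins the ribosome.

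Symbols do not always give the place in the ribosome. By the solved structures, 51 members belong to the large subunit, 30 with a bacterial homolog and 21 specific to mitochondria, among them Mrps18a and Mrps30 despite their symbols. A further 26 belong to the small subunit, 16 with a bacterial homolog and 10 specific to mitochondria. Mrps36 is a component of the 2-oxoglutarate dehydrogenase complex and belongs to neither. It was at 14.5 to 20.9 FPKM and was called in none of the 5 comparisons, but without control hemin replicate 3 it was called higher with hemin in controls (0.27) and lower with hemin in colonoids labelled KO than in controls (-0.36).

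The first question was how control colonoids responded to hemin. Of the 77 members, 23 fell and 9 rose (limma, Benjamini-Hochberg adjusted over 12740 genes, called at an adjusted p under 0.05). These are 29.9% lower and 11.7% higher, beside 26.7% of all genes tested called lower and 23.2% called higher. The share of members called lower was thus near the background and the share called higher was below it. The fall of most members was small. Only Mrps28, or 1 member, was called lower and also changed by more than 1 on the log2 scale, beside 5.93% of all genes. The median log2 change was -0.094 over large-subunit members and -0.129 over small-subunit members, beside -0.013 over all genes. Large-subunit members accounted for 14 of 48 lower and 6 higher, and small-subunit members for 9 of 29 lower and 3 higher. Without control hemin replicate 3, 27 members fell and 15 rose, beside 29.5% of all genes lower and 27.1% higher in that fit, and the median over small-subunit members was -0.014.

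The largest fall among the members was in Mrps28, a small-subunit protein (chr3:8802146-8923918, minus strand, mm10). It was at 24.93, 22.94 and 27.04 FPKM in control vehicle and at 13.1, 6.80 and 9.07 FPKM in control hemin. In the libraries labelled KO it was at 35.0, 29.8 and 31.9 FPKM with vehicle and at 6.92, 8.79 and 8.63 FPKM with hemin. Every hemin library was below every vehicle library, in both genotypes. Its log2(FPKM + 1) fell by 1.32 in controls (SE 0.18, limma adjusted p = 0.000113) and by 1.87 in colonoids labelled KO (SE 0.18, limma adjusted p = 5.21e-06). The difference between these responses was -0.55 (SE 0.25) and was not called (limma adjusted p = 0.148). Its log2 level followed, over the 12 libraries, most closely those of Mdn1 (Pearson r = 0.979), Zbed3 (0.978), Muc4 (0.976), Lgals12 (0.975) and Nle1 (0.975). Mdn1 and Nle1 act in maturation of the cytosolic large ribosomal subunit. These libraries share their 4 groups, so the correlations describe the group pattern.

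After Mrps28, the members that fell most in controls were Mrps18b, Mrpl54, Mrps5, Mrpl19 and Mrpl45. Mrps18b, a small-subunit member of a family with 3 copies, went from 15.6, 14.3 and 13.5 FPKM to 5.71, 8.54 and 9.06 FPKM (log2 change -0.84, SE 0.14, limma adjusted p = 0.000440). Mrpl54, a large-subunit protein specific to mitochondria, went from 53.1, 55.8 and 55.7 FPKM to 36.9, 38.6 and 21.8 FPKM (log2 change -0.78, SE 0.17, limma adjusted p = 0.00260). The lowest of these values was in replicate 3, yet the other hemin libraries were also below all vehicle libraries. Mrps5, a bacterial-type small-subunit protein, fell by 0.69, Mrpl19, a bacterial-type large-subunit protein, by 0.63, and Mrpl45, which sits by the exit tunnel for new proteins, by 0.57 on the log2 scale. The calls of Mrps28, Mrps18b, Mrpl54, Mrps5, Mrpl19 and Mrpl45 held in all 22 alternative settings.

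The members that rose most in controls were Mrps21, Mrpl43, Mrpl27, Mrpl49, Mrps23 and Mrpl22. Mrps21 was at 51.9, 53.4 and 53.9 FPKM with vehicle and at 99.995, 91.087 and 58.263 FPKM with hemin (log2 change 0.60, SE 0.15, limma adjusted p = 0.00734). All hemin libraries were above the vehicle libraries, and replicate 3 was the closest to them. Mrpl43 was at 47.3, 52.0 and 53.0 FPKM with vehicle and at 71.6, 80.9 and 65.6 FPKM with hemin (log2 change 0.51, SE 0.094, limma adjusted p = 0.00103). Mrpl27, which in bacteria lies next to the site of peptide bond formation, rose by 0.41, Mrpl49, a protein specific to mitochondria, by 0.38, Mrps23 by 0.32 and Mrpl22, which lines the exit tunnel, by 0.30 on the log2 scale. Mrpl27 and Mrpl49 each overlap another expressed gene on the opposite strand, and whether the counting used strand is not given in the sources used here. The call of Mrpl22 was kept in 12 of 22 alternative settings and was lost with, among others, the replicate block, limma-voom and leaving out control vehicle replicate 2 or 3 or control hemin replicate 2 or 3. None of the 9 rises was called on the TPM scale (FPKM rescaled so that every library has the same sum), on which the median of all genes was -0.19 instead of -0.013 and 20 members were called lower, beside 24.7% of all genes called lower and 6.70% called higher.

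The same question in colonoids labelled KO gave a larger count of falls. Of the 77 members, 31 (40.3%) fell and 5 (6.49%) rose with hemin, beside 30.4% of all genes called lower and 29.9% called higher. Only Mrps28 was also past 1 on the log2 scale, beside 8.07% of all genes. Large-subunit members accounted for 19 of 48 lower and 2 higher, with a median of -0.137, and small-subunit members for 12 of 29 lower and 3 higher, with a median of -0.196, beside -0.002 over all genes. By structure and origin, the large-subunit proteins specific to mitochondria had 12 of 20 lower and 1 higher, with a median of -0.331, and those with a bacterial homolog 9 of 30 lower and 1 higher, with a median of -0.131. The small subunit had 5 of 10 lower among the mitochondria-specific proteins, with a median of -0.153. Among those with a bacterial homolog it had 5 of 16 lower, with a median of -0.191. Only the medians were in the opposite order to the large subunit. By the share called lower, mitochondria-specific proteins were ahead in both subunits. In controls the medians of mitochondria-specific proteins were the lower ones, at -0.202 against -0.046 (large) and -0.142 against -0.059 (small). Leaving out each library in turn moved neither the 31 falls nor the 5 rises over all members by more than 1.5 times. Within the classes, the large-subunit proteins with a bacterial homolog had 3 rises in place of 1 without control hemin replicate 3. On the TPM scale the median of all genes shifted to -0.31, 38 members were called lower and 1 higher, beside 37.0% of all genes lower and 9.35% higher.

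**Figure D1:**
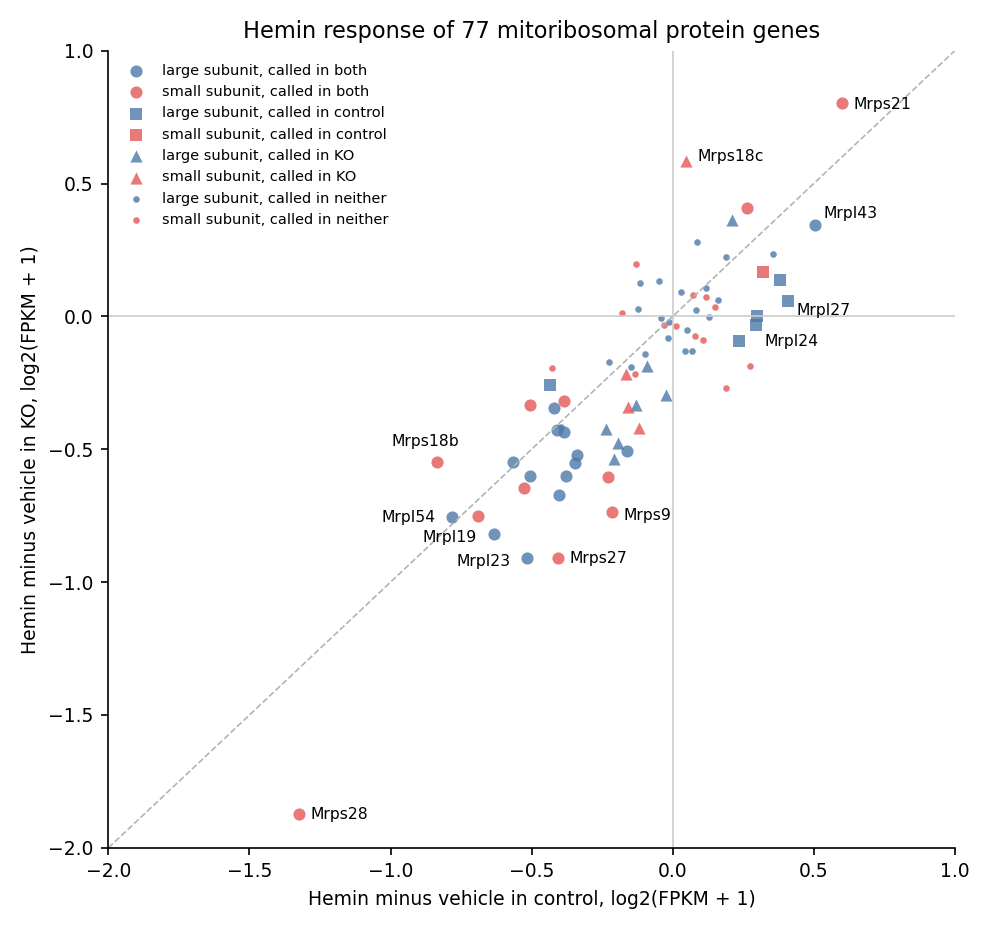
Each point is 1 of the 77 tested members. The x axis is the change of log2(FPKM + 1) with hemin in control colonoids and the y axis the same change in colonoids labelled KO (n = 3 libraries per group), with large-subunit members in blue, small-subunit members in red and the marker shape giving where the member was called. Mrps28 lies far to the lower left at -1.32 and -1.87, Mrps21 at the upper right at 0.60 and 0.80, and no member was called in opposite directions.

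Mrps27, a mitochondria-specific small-subunit protein with pentatricopeptide repeats (chr13:99344786-99415562, plus strand, mm10), went from 19.9, 19.0 and 20.5 FPKM with vehicle to 9.99, 10.2 and 9.99 FPKM with hemin in colonoids labelled KO. The hemin libraries lay close together and all below the vehicle libraries (log2 change -0.91, SE 0.099, limma adjusted p = 1.51e-05). Mrpl23, a bacterial-type protein at the exit of the large subunit's tunnel, went from 8.42, 8.13 and 9.17 FPKM to 3.83, 4.23 and 4.24 FPKM (log2 change -0.91, SE 0.095, limma adjusted p = 1.09e-05). Mrpl19 went from 7.04, 6.73 and 6.83 FPKM to 3.12, 3.66 and 3.61 FPKM (log2 change -0.82, SE 0.083, limma adjusted p = 8.13e-06). For these 3 genes every hemin library was below every vehicle library. Mrpl54 fell by 0.76 and Mrps5 by 0.75 on the log2 scale. The calls of these 5 genes and of Mrps28 held in all 22 alternative settings.

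The 5 members that rose in colonoids labelled KO were Mrps21, Mrps18c, Mrps33, Mrpl20 and Mrpl43. Mrps21 was at 56.6, 54.1 and 55.9 FPKM with vehicle and at 97.0, 101 and 94.5 FPKM with hemin (log2 change 0.80, SE 0.15, limma adjusted p = 0.000938), a rise that was called in all 22 alternative settings. Mrps18c, the bacterial-type copy of the Mrps18 family, was at 11.2, 11.8 and 10.3 FPKM with vehicle and at 16.4, 19.2 and 15.9 FPKM with hemin (log2 change 0.59, SE 0.14, limma adjusted p = 0.00457), and was not called on the TPM scale. Mrps33 rose by 0.41, Mrpl20, which in bacteria binds early in assembly of the large subunit, by 0.36 and Mrpl43 by 0.34, and these 3 calls were lost on the TPM scale with and without Gm23935 in the sum. The call of Mrpl20 was also lost when single libraries labelled KO were left out.

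**Figure D2:**
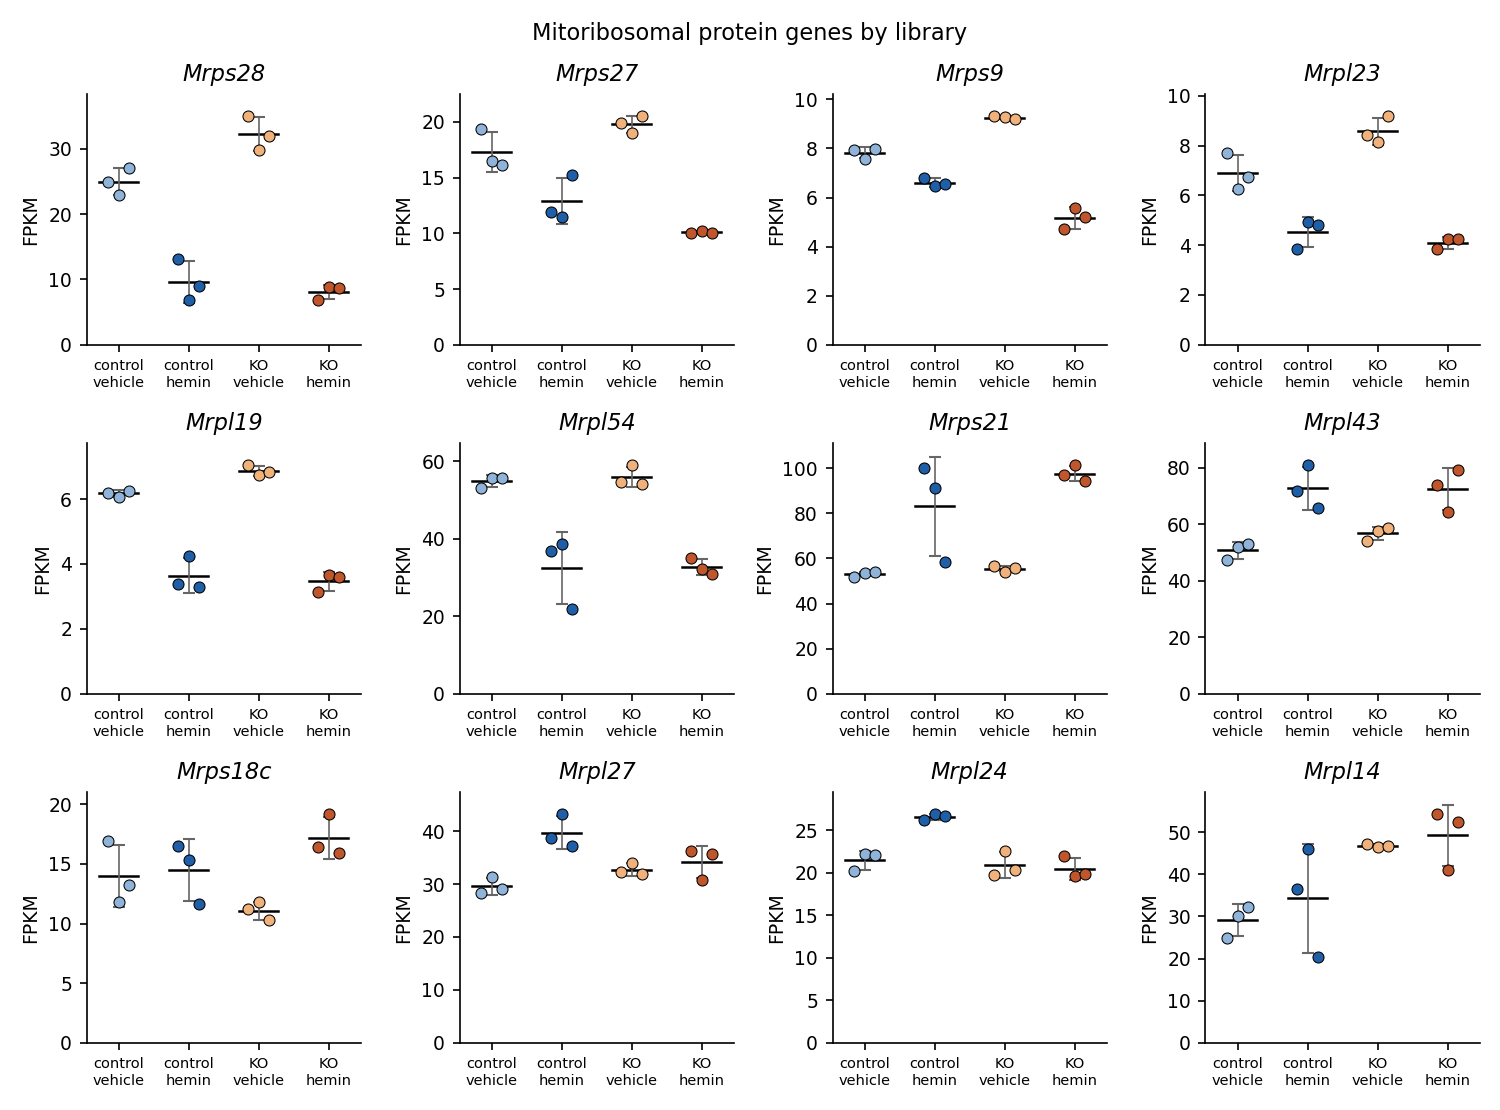
FPKM of 12 named members in each library, with 1 panel per gene and the 4 groups along the x axis. Points are libraries (n = 3 per group), horizontal lines are means and whiskers are SD. Mrps28 was between 22.9 and 35.0 FPKM with vehicle and between 6.80 and 13.1 FPKM with hemin, while Mrps21 was above its vehicle range in all 6 hemin libraries.

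Members called in both genotypes moved the same way in both. A total of 22 members were called lower in both, 3 were called higher in both (Mrps21, Mrpl43 and Mrps33), and 0 were called in opposite directions. These are 28.6%, 3.90% and 0% of members, beside 19.9%, 17.5% and 2.03% of all genes. The hemin comparisons share no libraries, but both came from 1 fit with a spread per gene shared over all 12 libraries. Their calls are therefore not independent. A further 1 member was called lower in controls alone (Mrpl21) and 9 in colonoids labelled KO alone, while 6 were called higher in controls alone and 2 in colonoids labelled KO alone (Mrpl20 and Mrps18c). Mrpl41, called higher in controls alone, was at 29.8, 31.2 and 30.8 FPKM with vehicle and at 28.2, 27.4 and 30.3 FPKM with hemin in colonoids labelled KO. A call in 1 genotype alone does not show that the responses differed, which the interaction tests below.

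The Mrps18 family illustrates how members differed. Mrps18b, above, fell in both genotypes, by 0.84 in controls and by 0.55 in colonoids labelled KO. Mrps18a, which sits in the large subunit, fell by 0.38 in controls (limma adjusted p = 0.0103) and by 0.32 in colonoids labelled KO (limma adjusted p = 0.0209), from 8.22, 7.90 and 8.22 to 6.79, 6.58 and 4.76 FPKM in controls. The change in controls was -0.25, still called, without control hemin replicate 3, and the call in colonoids labelled KO was lost without vehicle replicate 1 or 2 or hemin replicate 3 of that genotype. Mrps18c changed by 0.05 in controls, with overlapping groups, and rose by 0.59 in colonoids labelled KO, a difference between responses of 0.54 (SE 0.20) that was not called (limma adjusted p = 0.0819).

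The stalk, which recruits translation factors to the large subunit, had called and uncalled members, and these were not tested against each other. Mrpl10, its anchor, differed between hemin and vehicle by 0.08 in controls and by 0.02 in colonoids labelled KO, not called in either, with levels of 29.3 to 40.6 FPKM in all libraries. Mrpl12, its repeated protein, differed by -0.39 (limma adjusted p = 0.111) and by -0.42 (limma adjusted p = 0.0827). In colonoids labelled KO Mrpl12 was at 65.6, 66.2 and 68.2 FPKM with vehicle and at 54.0, 43.8 and 51.8 FPKM with hemin, without overlap though not called. The difference in controls without hemin replicate 3 was -0.13 for Mrpl12, not called, and 0.23 for Mrpl10, called (limma adjusted p = 0.0194). Mrpl11, at the stalk base, was at 12.1, 11.2 and 12.2 FPKM in control vehicle and at 10.6, 11.2 and 9.68 FPKM in control hemin, and fell by 0.16 (limma adjusted p = 0.0455), a call lost in 17 of 22 alternative settings. In colonoids labelled KO it went from 11.8, 11.5 and 11.8 FPKM to 8.14, 7.98 and 7.71 FPKM and fell by 0.51 (SE 0.061, limma adjusted p = 3.31e-05), a call held in all 22. Mrpl58, a peptidyl-tRNA hydrolase that is also a structural protein of the large subunit, was at 9.41 to 13.1 FPKM in all libraries and differed by -0.02 in controls and by -0.08 in colonoids labelled KO, not called.

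Among the lowest members, Mrps30 went from 4.10, 3.63 and 3.47 FPKM to 2.14, 1.90 and 2.88 FPKM in controls and from 3.37, 3.76 and 3.58 FPKM to 1.67, 1.92 and 2.19 FPKM in colonoids labelled KO, falling by 0.53 (limma adjusted p = 0.00239) and by 0.65 (limma adjusted p = 0.000441). Mrpl48 fell by 0.40 (limma adjusted p = 0.000514) and by 0.67 (limma adjusted p = 7.97e-06). Mrpl48 overlaps Rab6a on the opposite strand. Mrpl32 differed by -0.12 and by 0.03 and was called in neither, as was Mrpl34, the highest member, which differed by 0.13 and by -0.00.

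Falls and rises were split by gene length. In colonoids labelled KO, 21 of the 38 members longer than 2255 bases fell and 0 rose, while 10 of the 39 shorter members fell and all 5 rises were among them. In controls the longer members had 15 falls and 0 rises and the shorter members 8 falls and 9 rises. Of all genes tested, 33.6% of the longer ones were called higher and 31.6% lower in colonoids labelled KO, and 20.8% and 27.5% of the shorter ones. In controls the same shares were 25.2% and 28.5% of the longer and 18.1% and 22.3% of the shorter genes. Without control hemin replicate 3 the longer members had 2 rises and 16 falls in controls and 1 rise and 21 falls in colonoids labelled KO, and the shorter members 13 rises and 11 falls and 6 rises and 14 falls. In that fit 28.4% of all longer genes rose and 32.1% fell in controls and 38.6% and 35.2% in colonoids labelled KO, against 23.7% and 23%, and 24.5% and 32%, of the shorter genes. On the TPM scale the shorter members had 0 rises in controls and 1 in colonoids labelled KO, beside 7.54% and 8.89% of all shorter genes. On that scale 8 of 39 shorter and 12 of 38 longer members fell in controls, beside 23.4% and 25.2% of all genes of those lengths. In colonoids labelled KO 16 of 39 and 22 of 38 fell, beside 35.7% and 37.5%. Length here is the gene length in the deposited table, with untranslated regions included, and its part in the result was not tested.

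**Figure D3:**
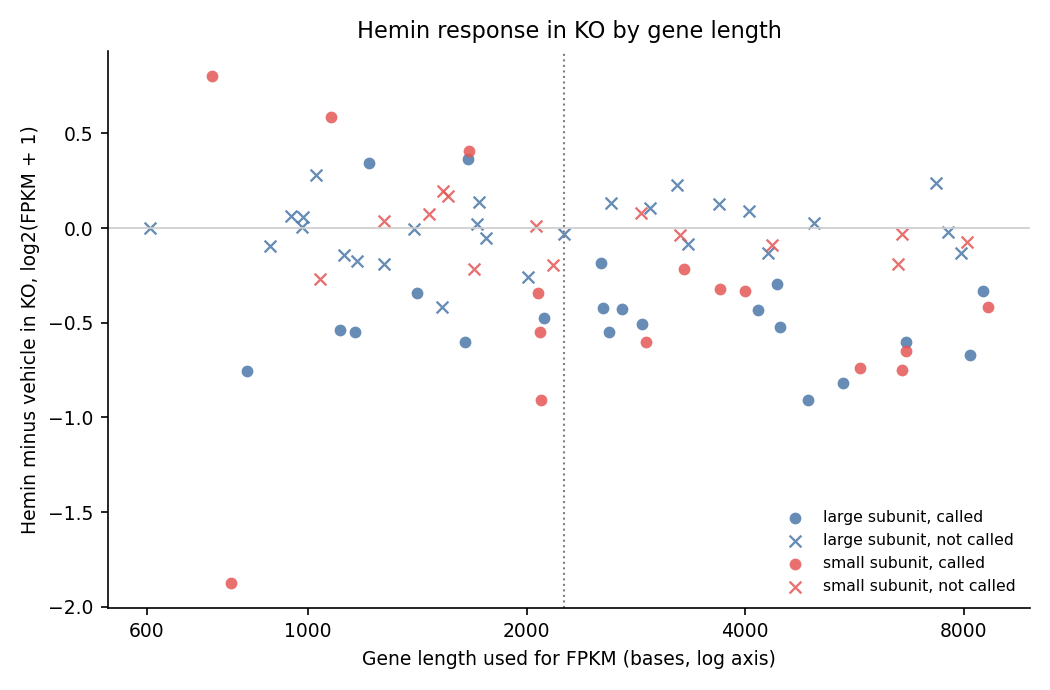
The change of log2(FPKM + 1) with hemin in colonoids labelled KO (y axis) against the gene length used for FPKM in bases (x axis, log scale) for the 77 tested members. Filled circles are called members, crosses are not called, blue is the large and red the small subunit, and the dotted line is the median length of 2255 bases. All 5 called rises lie to the left of the line.

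Because the symbols divide the members into subunits, the FPKM of each subunit were summed per library. The large-subunit sum was 1083 ± 17.5 (SD, n = 3) in control vehicle, 1044 ± 128 in control hemin, 1194 ± 18.5 in vehicle labelled KO and 1071 ± 22.1 in hemin labelled KO. The small-subunit sum was 442 ± 7.28, 448 ± 60.2, 484 ± 0.901 and 467 ± 0.513 FPKM in the same order. In colonoids labelled KO both sums were lower in every hemin library than in every vehicle library, at 1047 to 1089 against 1175 to 1212 FPKM for the large subunit and at 467 to 468 against 483 to 485 FPKM for the small subunit. In controls the hemin range, 920 to 1175 FPKM for the large subunit, contained the vehicle range of 1065 to 1100 FPKM, and the lowest value was that of replicate 3. With vehicle, both sums were higher in every library labelled KO than in every control library.

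The large subunit had 2.45 ± 0.0720 times the summed FPKM of the small subunit in control vehicle, 2.34 ± 0.136 in control hemin, 2.47 ± 0.0425 in vehicle labelled KO and 2.29 ± 0.0462 in hemin labelled KO (SD, n = 3). The ratio did not overlap between vehicle (2.42 to 2.51) and hemin (2.24 to 2.33) in colonoids labelled KO, and it overlapped in controls (2.37 to 2.50 against 2.18 to 2.43). The order of the ratios rested on Mrps21. With Mrps21 left out, a choice made after seeing the data, the ratio in colonoids labelled KO was 2.74 to 2.82 with vehicle and 2.86 to 2.92 with hemin, so that it was higher with hemin, again with no overlap, and in controls it was 2.79 ± 0.0942 with vehicle and 2.86 ± 0.0971 with hemin (SD, n = 3). Leaving out any of the other 77 members, 1 at a time, kept the mean ratio lower with hemin in both genotypes. In colonoids labelled KO the median over members, which weighs each gene alike, was lower for the small than for the large subunit, so that the ratio and the medians differ in direction. In controls the order of the medians rested on replicate 3, since without it they were -0.050 for the large and -0.014 for the small subunit. With members placed by structure the ratios were 2.65, 2.51, 2.65 and 2.44 in the same order.

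**Figure D4:**
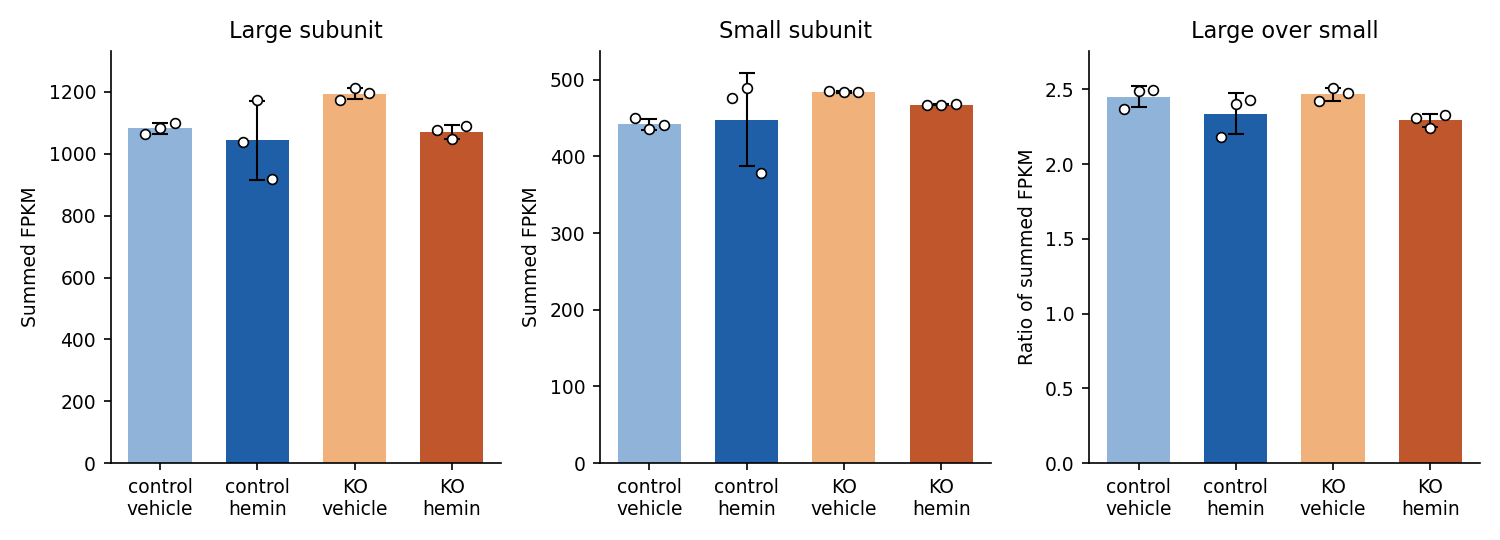
Summed FPKM of the large-subunit members, summed FPKM of the small-subunit members and their ratio (y axes) in the 4 groups. Bars are means of 3 libraries, whiskers are SD and circles are libraries. In colonoids labelled KO the ratio was 2.42 to 2.51 with vehicle and 2.24 to 2.33 with hemin, an order that turned with Mrps21 left out (2.74 to 2.82 and 2.86 to 2.92).

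The next question was how the labelled genotypes differed. With vehicle, 6 of 77 members (7.79%) were higher in colonoids labelled KO and 0 were lower (limma, beside 17.4% of all genes called higher and 16.8% lower). At an unadjusted p under 0.05, 1 member was lower, and limma-voom on recovered fragments called 0 lower. The members called higher were Mrpl14, Mrpl22, Mrpl23, Mrpl41, Mrpl49 and Mrps9. Mrpl14, a bacterial-type protein at the face between the subunits, was at 24.98, 30.03 and 32.28 FPKM in controls and at 47.1, 46.5 and 46.8 FPKM in colonoids labelled KO (log2 difference 0.67, SE 0.24, limma adjusted p = 0.0472). Mrpl14 overlaps Tmem63b on the opposite strand. The other 5 differences were between 0.22 and 0.31. Of the 77 members 56 (72.7%) had a positive difference, beside 52.6% of all genes, and the medians were 0.106 for the large and 0.149 for the small subunit, beside 0.019 over all genes. None of the 6 calls held in every alternative setting. The count was 0 without vehicle replicate 2 labelled KO (beside 13.8% of all genes higher in that fit). It was 1 without control vehicle replicate 2 or 3 or vehicle replicate 1 labelled KO (beside 14.2%, 14.7% and 14.2%). It was 2 without vehicle replicate 3 labelled KO (beside 13.7%) and 3 without hemin replicate 1 labelled KO (beside 16.7%). Without control hemin replicate 3 it was 17 (beside 23.8%). With the replicate block it was 2 (beside 16%), and on the TPM scale 0 (beside 11.6%). With TPM without Gm23935 in the sum it was 13 (beside 20.9%), and with only the groups compared 23 (beside 24.5%).

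With hemin, 7 of 77 members (9.09%) were lower in colonoids labelled KO than in controls and 0 were higher, beside 14.7% of all genes called lower and 19.7% called higher (limma). At an unadjusted p under 0.05, 3 members were higher, and limma-voom called 0 higher. The called members were Mrpl24, Mrpl11, Mrpl50, Mrps27, Mrps9, Mrps35 and Mrps2, with log2 differences between -0.37 and -0.25. Mrpl24, a bacterial-type large-subunit protein, was at 26.2, 26.9 and 26.7 FPKM in controls and at 21.9, 19.6 and 19.8 FPKM in colonoids labelled KO (log2 difference -0.37, SE 0.068, limma adjusted p = 0.00159). It overlaps Rrnad1 on the opposite strand. Mrpl11 was at 10.6, 11.2 and 9.68 FPKM and at 8.14, 7.98 and 7.71 FPKM (log2 difference -0.36, SE 0.061, limma adjusted p = 0.000933). The medians were 0.015 for the large and 0.060 for the small subunit, beside 0.037 over all genes, and both turned negative, at -0.034 and -0.041, without control hemin replicate 3. All 7 calls were lost on the TPM scale. Without control hemin replicate 3, 15 members were lower and 2 higher (beside 18.3% of all genes lower and 24.7% higher). Without control hemin replicate 2, 8 were higher (beside 21.3%), and without hemin replicate 1 or 2 labelled KO, 4 were lower (beside 12.2% and 13%).

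The difference between the hemin responses of the labelled genotypes (the interaction) was called negative for 6 of 77 members (7.79%) and positive for 0, beside 10.5% of all genes called negative and 13.3% positive (limma). At an unadjusted p under 0.05, 1 member was positive, and limma-voom called 0 positive. Mrps9, a bacterial-type small-subunit protein, had the largest of these. It was at 7.94, 7.56 and 7.98 FPKM in control vehicle, at 6.80, 6.49 and 6.55 FPKM in control hemin, at 9.31, 9.27 and 9.19 FPKM in vehicle labelled KO and at 4.70, 5.58 and 5.22 FPKM in hemin labelled KO. Vehicle libraries were higher and hemin libraries lower in colonoids labelled KO than in controls, with no overlap. Its response differed by -0.52 (SE 0.086, limma adjusted p = 0.00128). Mrps27 differed by -0.50 (SE 0.14, limma adjusted p = 0.0242), having fallen by 0.41 in controls and by 0.91 in colonoids labelled KO. Mrps2, a bacterial-type small-subunit protein, and Mrpl11 also fell in both genotypes and by more in those labelled KO, with differences of -0.37 and -0.34. Mrpl27 and Mrpl24 had another pattern, since they rose in controls by 0.41 and 0.30 and were not called in colonoids labelled KO, at 0.06 and -0.03, with differences of -0.35 and -0.33. The medians were -0.097 for the large and -0.061 for the small subunit, beside 0.016 over all genes, and -0.175 and -0.173 without control hemin replicate 3. The count was 0 on the TPM scale (beside 4.69% of all genes negative) and 3 with the replicate block (beside 8.89%). It was 16 without control hemin replicate 3 (with 1 positive, beside 16.2% of all genes negative and 20.8% positive). Without vehicle replicate 2 or 3 or hemin replicate 3 labelled KO it was 3, beside 8.14%, 8.15% and 8.63%.

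Promoters of the members were searched for letters that factors of nuclear genes for mitochondria are known to bind, and for a few others. RefSeq promoters (GRCm38.p6, 250 bases before to 50 after the start) were found for 69 of the 78 members, 75 promoters in all, and not for Mrps28. Letters were searched on both strands. The ETS core CCGGAAG, which GABPA and other ETS factors bind, was in 26 of 75 member promoters (34.7%), beside 18.6% of the promoters of tested protein-coding genes and 8.86% of all promoters. The YY1 core AAGATGGC was in 12 of 75, beside 4.67% and 2.75%, and the NRF1 core GCATGCGC in 10.7%, beside 5.46% and 2.71%. The E-box CACGTG, bound by MYC, was in 9.33% (10.2% and 7.15%), the GC box GGGCGG in 52.0% (63.7% and 35.7%), the partial THAP11 site ACTACAA in 6.67% (4.25% and 3.24%) and the antioxidant response element TGACNNNGC in 18.7% (14.5% and 12.4%). The amino acid response element TGATGNAA was in 0 of 75 (2.22% and 3.97%). Each set of letters was counted on its own, so matches of 2 kinds may overlap, and a match is only a match of letters.

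The ETS core was found in 7 of 25 members that fell with hemin in colonoids labelled KO and have a promoter entry, in 4 of 5 that rose and in 14 of 38 that were not called. The sites of the called members are shown because members that moved in opposite directions carried the same core. Each is written 5′ to 3′ on the strand where the core reads CCGGAAG, with the core in capitals and up to 10 bases on each side within the promoter window (GRCm38.p6), and where a promoter held 2 cores the site nearest the start is shown. The first 7 members fell and the last 4 rose.
Mrps27 (chr13:99344728-99344754, minus strand): cccgcctccgCCGGAAGtggtcctacc
Mrpl48 (chr7:100583148-100583174, plus strand): catcttggttCCGGAAGtttttaaaac
Mrpl3 (chr9:105053239-105053265, plus strand): gagaaacggaCCGGAAGtggcccggct
Mrps18b (chr17:35916391-35916407, plus strand): CCGGAAGagcgactgcg
Mrpl52 (chr14:54426901-54426927, minus strand): agcaagggaaCCGGAAGtgggcgtggc
Mrps22 (chr9:98601674-98601700, minus strand): acctctcgagCCGGAAGttgctctatc
Mrps18a (chr17:46110968-46110994, plus strand): cacccctgctCCGGAAGcggaagtgca
Mrpl43 (chr19:45006438-45006464, minus strand): aaccccggaaCCGGAAGtcaccggtta
Mrps33 (chr6:39810887-39810908, plus strand): cgtccCCGGAAGgcccgccccc
Mrps18c (chr5:100798593-100798619, minus strand): gcttcccgggCCGGAAGtcacgtgacc
Mrps21 (chr3:95871480-95871506, plus strand): tctctgcggaCCGGAAGcggaagctac

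The YY1 core was in 6 of the 25 members that fell and in 0 of the 5 that rose, and the NRF1 core in 3 and 0, numbers too small for a comparison. Many members also share their start region with a neighbour. Another gene started within 1000 bases on the opposite strand for 33 of the 77 tested members (42.9%), beside 17.1% of 10839 tested protein-coding genes. The neighbour of Mrpl43 is Twnk, the mitochondrial DNA helicase, and Mrpl46 and Mrps11 are neighbours of each other. Over all members, 20 are overlapped by another gene with a mean of at least 1 FPKM, 2 of them on the same strand (Mrps24 by Urgcp and Mrps6 by Slc5a3), so their counts are uncertain.

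Mitoribosomal proteins without an Mrpl or Mrps symbol, 5 in number, were read from the same fit. Gadd45gip1, a large-subunit protein, fell by 0.71 in controls (limma adjusted p = 0.0276) and by 0.70 in colonoids labelled KO (limma adjusted p = 0.0230). In colonoids labelled KO, Dap3, a GTP-binding small-subunit protein, fell by 0.30, Ptcd3, a small-subunit protein with pentatricopeptide repeats, fell by 0.29 and Aurkaip1, also of the small subunit, rose by 0.36 (0.02 and not called on the TPM scale), while Chchd1 differed by 0.04 and was not called. In controls Dap3, Ptcd3, Chchd1 and Aurkaip1 were not called, but without control hemin replicate 3, 3 of them were: Dap3 (0.17) and Aurkaip1 (0.46) higher and Ptcd3 (-0.32) lower, while Gadd45gip1 was at -0.36. Dap3 had a called difference between the responses of -0.41 (limma adjusted p = 0.00468), which was not called on the TPM scale.

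Genes that build and run the mitoribosome are read against the shares of all genes given above, 26.7% lower and 23.2% higher with hemin in controls and 30.4% and 29.9% in colonoids labelled KO. Of 24 factors of assembly and rRNA modification, 6 fell and 3 rose in controls and 11 fell and 0 rose in colonoids labelled KO, with medians of -0.084 and -0.234. In controls Rcc1l, an assembly factor, changed by -0.72 and Fastkd2, which binds the large rRNA, by -0.68, and their order turned without control hemin replicate 3 (-0.58 and -0.83) and on the TPM scale (-0.97 and -0.98). Fastkd2 fell most in colonoids labelled KO, by 1.13, from a mean of 5.64 to 2.05 FPKM. Mrm1, an rRNA methyltransferase, rose most in controls, by 0.56. Of 14 translation factors, 4 fell and 2 rose in controls and 9 fell and 1 rose in colonoids labelled KO. The largest fall was in Tsfm, the exchange factor for the elongation factor Tufm, at -1.003 in controls and -1.28 in colonoids labelled KO, and Tufm itself changed by -0.62 and -0.80. The formyltransferase Mtfmt rose by 0.35 in both. Among 14 regulators of nuclear genes for mitochondria, 6 fell and 0 rose in controls and 8 fell and 1 rose in colonoids labelled KO. Myc, a transcription factor of growth, changed by -1.40 and -1.33, and Pprc1, a coactivator of the PGC-1 family, by -1.26 and -1.27, in controls and in colonoids labelled KO. Ppargc1a, another of that family, rose by 0.37 in colonoids labelled KO. In controls 25% of assembly factors, 28.6% of translation factors and 42.9% of regulators were thus called lower, beside 26.7% of all genes, and in colonoids labelled KO 45.8%, 64.3% and 57.1%, beside 30.4%. The shares called higher were 12.5%, 14.3% and 0% in controls, beside 23.2% of all genes, and 0%, 7.14% and 7.14% in colonoids labelled KO, beside 29.9%. Without control hemin replicate 3, 6 assembly factors rose and 7 fell in controls, with a median of -0.032, 7 translation factors fell, 1 regulator rose, and 2 assembly factors rose in colonoids labelled KO. The rises of Mrm1, Mtfmt and Ppargc1a were not called on the TPM scale. Between genotypes, the largest called differences in each of these lists and each direction were, with vehicle, 0.63 for the rRNA methyltransferase Mettl15 and 0.32 for the mitochondrial transcription factor Tfam, and with hemin, -0.60 for Ngrn, which acts on the large rRNA, 0.41 for the pseudouridine synthase Rpusd4, -0.45 for the membrane insertase Oxa1l, 0.19 for the elongation factor Gfm1 and 0.41 for Ppargc1a. The called differences between responses were -0.75 for Ngrn, -0.71 for Mettl15, -0.48 for Mterf4, -0.44 for the recycling factor Mrrf and -0.39 for Oxa1l. On the TPM scale the difference of Mettl15 with vehicle was called, and the other differences between genotypes or responses named from these lists were not.

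The RNAs of the mitochondrial genome had rises and no falls with hemin. Of 15 such transcripts, the rRNAs of the mitoribosome and the mRNAs it translates, 7 rose and 0 fell in controls and 8 rose and 0 fell in colonoids labelled KO, with medians of 0.469 and 0.611. These are 46.7% and 53.3% higher, beside 23.2% and 29.9% of all genes called higher and 26.7% and 30.4% called lower. The small rRNA mt-Rnr1 rose most in colonoids labelled KO, by 1.37, from a mean of 208 to 542 FPKM, and the large rRNA mt-Rnr2 rose by 0.96, from 295 to 576 FPKM. In controls mt-Nd6, a complex I subunit encoded on the other strand than the remaining mRNAs, rose most, by 0.90, and whether its counts used strand is not given in the sources used here. On the TPM scale the medians stayed positive, at 0.28 in each genotype, with 2 rises in controls and 5 rises and 1 fall in colonoids labelled KO. On that scale 6.7% of all genes were called higher and 24.7% lower in controls, and 9.35% and 37% in colonoids labelled KO. Without control hemin replicate 3 the median in controls was 0.290, with 6 rises and 0 falls, beside 27.1% of all genes higher and 29.5% lower. The libraries were made from poly-A RNA, in which mitochondrial rRNA is only partly retained. With vehicle, mt-Co2 was lower in colonoids labelled KO by 0.79, and with hemin mt-Nd3 was lower by 1.23.

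Cytosolic ribosomal proteins, the most similar group outside the mitochondrion, fell more uniformly. Of 77 tested, 53 fell and 0 rose in controls and 69 fell and 0 rose in colonoids labelled KO, with medians of -0.450 and -0.817 against -0.114 and -0.172 over all 77 mitoribosomal members. Of all genes, 26.7% were called lower and 23.2% higher in controls, and 30.4% and 29.9% in colonoids labelled KO. With hemin 33 cytosolic ribosomal proteins were lower in colonoids labelled KO than in controls and 0 higher, and for 25 the difference between responses was called negative, beside 14.7% and 10.5% of all genes. These counts were 2 and 2 on the TPM scale, beside 7.52% and 4.69% of all genes, and 53 and 52 without control hemin replicate 3, beside 18.3% and 16.2%. The difference between the lists themselves was not tested.

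**Figure D5:**
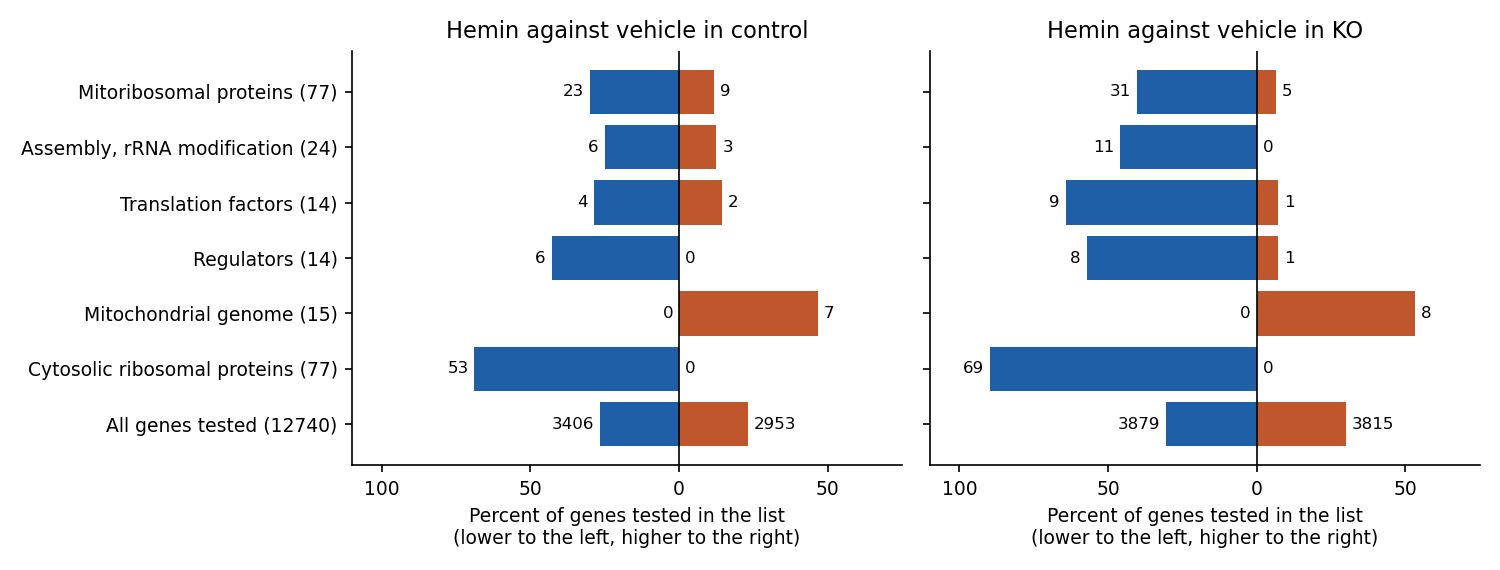
Percent of the tested genes of each list called lower (blue, to the left) and higher (orange, to the right) with hemin in controls (left panel) and in colonoids labelled KO (right panel), with the number of genes tested beside each name and the number called at the bar ends. Cytosolic ribosomal proteins had 53 and 69 falls of 77, mitoribosomal proteins 23 and 31 of 77, and the mitochondrial genome had rises and no falls.

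Proliferation markers moved with the groups. The 11 genes of that list summed to 352 to 383 FPKM in control vehicle, 120 to 138 FPKM in control hemin, 516 to 521 FPKM in vehicle labelled KO and 217 to 248 FPKM in hemin labelled KO. All 11 fell with hemin in each genotype, beside 26.7% of all genes called lower in controls and 30.4% in colonoids labelled KO. In colonoids labelled KO 10 were higher with vehicle and all 11 with hemin, beside 17.4% and 19.7% of all genes. Their part in the changes of the mitoribosomal genes was not tested. In these bulk libraries fewer cells of a type and less RNA per cell cannot be told apart.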

How the data were processed

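The authors deposited 1 table of FPKM for 54532 genes and 12 libraries with gene coordinates and lengths. Poly-A libraries were made and sequenced by Novogene. The submitters' processing notes name fastp, HISAT2 (2.0.5), featureCounts (1.5.0-p3) and mm10. Groups, dose and time came from the labels and the study's text. The deposited FPKM already carried a scaling between libraries, and 100% of values were whole multiples of 1 fragment (tolerance 0.01), from which fragments were recovered. Precision is limited by 11648801 to 25101868 fragments per library, and a count of 0 allows up to 3 fragments, for counting error only.

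limma (3.58.1, R 4.3.3) was fitted to log2(FPKM + 1) of the 12740 genes with at least 1 FPKM in at least 3 libraries, with 1 mean per group over all 12 libraries and an intensity trend. Values are differences on that scale, which understates changes of low genes. Adjustment was Benjamini-Hochberg over all genes tested, at 0.05. The fit was tested on simulated data. The members and lists were chosen with earlier results of these data known. Named genes were, per comparison, the 6 called members with the largest change in each direction, the 3 highest and 3 lowest members, members under the filter, the Mrps18 family, stalk proteins, Mrpl58, Mrps36 and Mrps30, the 5 genes most like the member with the largest change, and, of the other lists, the largest called changes; other names (the bases and neighbours of promoters, Tufm, mt-Rnr2) were chosen after their values were seen. Alternatives were another pseudocount (0.1), other filters, TPM with and without Gm23935, median-of-ratios scaling, a replicate block, no trend, only the groups compared, limma-voom on recovered fragments, and leaving out each library. Same-numbered libraries did not deviate together (mean r -0.042), so numbers were not taken as pairs. Sequences are from RefSeq. Python 3.11.15, pandas 2.3.3 and matplotlib 3.10.9 were used.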

Additional observations from a re-analysis of the deposited data

Results flagged for a closer look

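For 6 members the hemin response differed between the labelled genotypes by the test of the difference itself, KO minus control on the log2(FPKM + 1) scale (limma, 3 libraries per group). The differences were -0.52 for Mrps9, -0.50 for Mrps27, -0.37 for Mrps2, -0.35 for Mrpl27, -0.34 for Mrpl11 and -0.33 for Mrpl24. Of all genes tested, 10.5% were called negative in the same test, and none of the 6 calls held on the TPM scale.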

How the results depend on the processing

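No direction of a called result was reversed by an alternative. The called changes of single genes held in every alternative other than the fold threshold, which was not run gene by gene, for 14 of 32 with hemin in controls, 26 of 36 with hemin in colonoids labelled KO, and 0 of 6, 0 of 7 and 0 of 6 in the vehicle, hemin and interaction comparisons. The cause of the changes below was not tested. The shares of all genes called moved with the setting too. With TPM, members called higher were 0 in controls and 1 in colonoids labelled KO with hemin, and 0 between genotypes with vehicle, while members called lower were 0 between genotypes with hemin and 0 in the interaction, beside 6.70%, 9.35%, 11.6%, 7.52% and 4.69% of all genes. Its medians for the large and small subunit were -0.2853 and -0.3217 (controls), -0.4745 and -0.5383 (labelled KO), 0.2585 and 0.3042 (vehicle), and -0.2475 and -0.1997 (interaction), and its folds of summed FPKM were 0.7134 and 0.7667 with hemin in colonoids labelled KO and 1.216 and 1.211 with vehicle. With TPM without Gm23935 the same counts were 5, 2, 13, 11 and 12, beside 17.7%, 19.3%, 20.9%, 17.2% and 14.4% of all genes, the medians -0.2035 and -0.2399 (controls), -0.3657 and -0.4297 (labelled KO), and -0.2183 and -0.1693 (interaction), and the folds 0.7666 and 0.8253, and 1.153 and 1.146. With only the groups compared, 5 rose and 14 fell in controls, 9 rose in colonoids labelled KO, 23 were higher and 1 lower with vehicle, and 2 were lower with hemin, beside 16.5%, 20.3%, 35.0%, 24.5%, 22% and 9.14% of all genes. Without the filter 2 were higher with vehicle, beside 9.12% of all genes. With the replicate block 2 were higher with vehicle and 3 lower in the interaction, beside 16% and 8.89%, and no other count moved by over 1.5 times. With limma-voom 3 were lower in the interaction, beside 7.14%. With a fold threshold 0 rose and 1 fell in each genotype with hemin, 0 were higher with vehicle, 0 lower with hemin and 0 in the interaction. By structure the ratios of large to small were 2.651, 2.51, 2.646 and 2.44 and the small fold in colonoids labelled KO 0.9706. With Mrps21 left out, chosen after seeing the data, the ratios were 2.787, 2.862, 2.787 and 2.897, and the small fold with hemin in colonoids labelled KO 0.8631.

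Leaving out each library in turn gave, for members called higher and lower, 6 to 15 and 20 to 28 (controls), 4 to 7 and 26 to 35 (labelled KO), 0 to 17 and 0 to 1 (vehicle), 0 to 8 and 4 to 15 (hemin), and 0 to 1 and 3 to 16 (interaction). The shares of all genes called higher and lower were 19.9% to 27.1% and 23.1% to 29.5% (controls) and 26.6% to 34.6% and 27.6% to 34.3% (labelled KO). They were 13.7% to 23.8% and 13.5% to 21.9% (vehicle), 15.6% to 24.7% and 11.7% to 18.3% (hemin), and 10.4% to 20.8% and 8.14% to 16.2% (interaction). The medians of the large and small subunit were -0.1144 to -0.04966 and -0.1594 to -0.01365, -0.1663 to -0.1041 and -0.2176 to -0.1662, 0.07772 to 0.1128 and 0.1286 to 0.1488, -0.0336 to 0.04727 and -0.0408 to 0.1062, and -0.1746 to -0.08094 and -0.1725 to -0.00866 in the same order. The ratios were 2.43 to 2.493, 2.293 to 2.416, 2.448 to 2.49 and 2.274 to 2.318. The folds of the large and small sums were 0.9043 to 1.022 and 0.9675 to 1.092, 0.8894 to 0.9073 and 0.9651 to 0.9667, 1.094 to 1.112 and 1.087 to 1.105, and 0.9679 to 1.094 and 0.9688 to 1.093. The 1 member lower with vehicle appeared without control hemin replicate 1. Depth limits short members, Mrps28 among them, which rested on 63 to 448 fragments per library.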
